A study of Mus musculus with 12 samples.

Results

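The transcripts described are 9 genes of the complement system, chosen by symbol: the C1q chains C1qa, C1qb and C1qc, the component C3, the component C4b, factor B (Cfb), properdin (Cfp) and the receptors C3ar1 and C5ar1. They were selected with their difference between thymol and DMSO already known, so that difference is given for them as a description: no p-value is attached to it, and where the calls of the whole-table fit are counted they only place the members among all genes. Of the 9, 7 had a row in the table of 10697 genes, and C4b and Cfb were not analysed here. Of the 7, 6 were set on a macrophage-derived side (the C1q chains, Cfp, C3ar1 and C5ar1). C3 was set on a fibroblast-derived side, although hepatocytes and macrophages make it too. The cell source of each transcript was not measured here.

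Primary mouse adult fibroblasts (MAFs) are cells that grow out of pieces of adult mouse tissue in culture. Those measured here came from wild-type (WT) C57BL6/j mice and were exposed for 24 h to 100 µM thymol, a phenol of thyme oil, in 6 libraries or to its solvent DMSO in 6 libraries. Both groups shared genotype, cell type and solvent, and the labels number the libraries of each from 1 to 6 without saying whether these were separate cultures or animals. The p-values therefore measure the spread between these libraries, which may be technical.

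RNA was measured with QuantSeq, which sequences 1 tag near the 3′ end of a transcript, so that levels of different genes can be set side by side without correction for length. Levels are log2 CPM (log2 of the count per a fixed library total, plus a small prior count), and 1 unit is a doubling. Differences are mean log2 CPM with thymol minus mean log2 CPM with DMSO, from a linear model of the limma package fitted to all 10697 genes. A gene is said to pass the threshold when its limma p-value, adjusted for all 10697 genes by the Benjamini-Hochberg method, was under 0.05. The whole reads recovered from the values numbered 6240828 to 8064382 per DMSO library and 5435985 to 9049796 per thymol library.

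Complement is a protein cascade of innate immunity. C1q binds immune complexes, microbes and dying cells and starts the classical pathway, which assembles an enzyme that cuts C3. One C3 fragment tags the surface for uptake, properdin stabilises the alternative-pathway convertase that cuts more C3, and the small fragments C3a and C5a signal through the receptors C3ar1 and C5ar1. Tissue macrophages are a main source of C1q and properdin, whereas fibroblasts and hepatocytes contribute C3.

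The sequence before each start site is shown for the members whose difference is described most closely, to place the letters of some known binding motifs. QuantSeq reads the other end of the transcript, so the levels below are no measurement of these windows. RefSeq windows on GRCm38.p6 existed for 6 of the 7 members, and each run covers 250 bases before and the first 30 bases after the annotated start, on the gene's strand. Capitals mark matches to 4 short motifs on either strand. GAGGAA is the core that the macrophage lineage factor PU.1 binds. TGACTCA is the site of the AP-1 family of stress and growth factors. TTGCNNAA is the site of the C/EBP family. TATAAA is the TATA box of many promoters. No 2 of the matches overlapped.
Cfp, chrX:20931526-20931805, minus strand: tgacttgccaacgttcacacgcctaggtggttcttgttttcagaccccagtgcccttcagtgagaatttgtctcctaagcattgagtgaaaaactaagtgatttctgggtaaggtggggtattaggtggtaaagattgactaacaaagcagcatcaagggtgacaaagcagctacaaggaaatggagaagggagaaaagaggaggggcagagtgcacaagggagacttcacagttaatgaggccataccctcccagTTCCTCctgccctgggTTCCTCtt
C3ar1, chr6:122856128-122856407, minus strand: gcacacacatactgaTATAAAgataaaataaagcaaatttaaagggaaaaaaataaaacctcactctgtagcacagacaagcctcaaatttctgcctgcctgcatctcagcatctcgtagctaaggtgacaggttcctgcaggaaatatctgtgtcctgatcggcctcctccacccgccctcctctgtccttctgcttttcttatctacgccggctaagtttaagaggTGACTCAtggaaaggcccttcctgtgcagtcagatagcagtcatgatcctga
C5ar1, chr7:16259309-16259588, minus strand: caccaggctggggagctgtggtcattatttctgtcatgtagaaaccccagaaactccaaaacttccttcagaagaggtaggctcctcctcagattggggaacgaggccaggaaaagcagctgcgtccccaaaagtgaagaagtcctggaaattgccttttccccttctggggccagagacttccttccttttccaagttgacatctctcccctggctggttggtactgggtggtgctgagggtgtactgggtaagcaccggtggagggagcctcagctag
C3, chr17:57228107-57228386, minus strand: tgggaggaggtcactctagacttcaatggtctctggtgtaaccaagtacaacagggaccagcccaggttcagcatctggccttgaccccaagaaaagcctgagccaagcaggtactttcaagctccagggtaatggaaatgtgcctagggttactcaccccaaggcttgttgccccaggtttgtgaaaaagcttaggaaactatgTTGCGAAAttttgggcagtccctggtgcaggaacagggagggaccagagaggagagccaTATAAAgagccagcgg
Cfp held the PU.1 core in both of its matches, which began 6 and 22 bases after the first base. C3ar1 held an AP-1 match that began 22 bases before the start, and C3 held a C/EBP match that began 45 bases before it. The TATAAA letters began 235 bases before the start in C3ar1 and 14 bases after the first base in C3. The C5ar1 window held none of these letters, which says nothing of the factors themselves. Among the 32851 RefSeq windows of the same length, 26.0% held the PU.1 core, 4.94% the AP-1 letters, 10.4% the C/EBP letters and 13.1% TATAAA. C1qb, whose window is not printed, held a PU.1 core 30 bases before its start, and C1qc held a PU.1 core 193 bases before it. These matches describe letters and are no evidence of binding.

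The data showed a member set that moved in different directions. Properdin was lower with thymol in every library, C5ar1 was lower and C3ar1 was higher. For the 3 chains of C1q, the most abundant of all, the thymol means stayed within 0.049 log2 units of the DMSO means. Past the threshold were 1 member with a higher level, against 0.654% of all genes, and 2 members with a lower level, against 1.57% of all genes. In either direction this was 3 of 7, beside 2.22% of all genes, and since the choice of members used this contrast nothing is read from the share. The 6 thymol values and the 6 DMSO values did not overlap for 2 members, Cfp and C3ar1, beside 1.68% of all genes. The median difference over the 7 members was -0.03, and that over all genes was 0.0026.

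**Figure D1:**
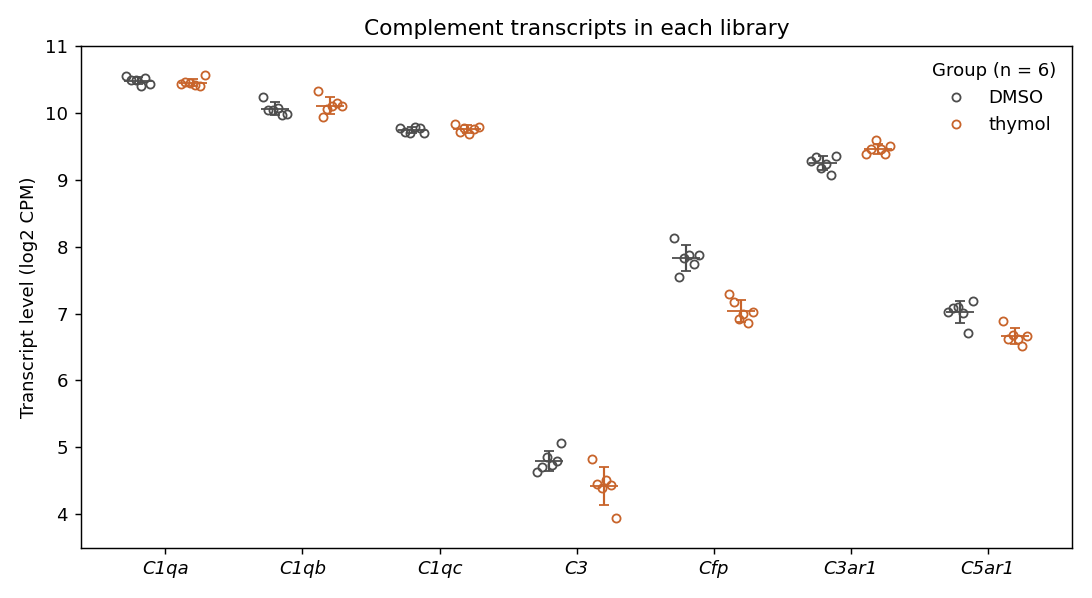
Level of each complement transcript (vertical axis, log2 CPM) in the 6 DMSO and the 6 thymol libraries. Circles are libraries, bars are the group mean ± SD. The 6 thymol values of Cfp all lie below the DMSO values, those of C3ar1 all lie above, and the C1q chains coincide.

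In the DMSO libraries the order of the levels was C1qa, C1qb, C1qc, C3ar1, Cfp, C5ar1 and C3, and no neighbours in this order overlapped between libraries. In the thymol libraries the order was the same, but the ranges of Cfp (6.86 to 7.30 log2 CPM) and C5ar1 (6.51 to 6.89 log2 CPM) now overlapped. By mean level over all libraries C1qa ranked 54 among the 10697 genes, C1qb 86, C1qc 110, C3ar1 160, Cfp 1023, C5ar1 1736 and C3 6322. C1q transcripts were thus among the most abundant of these cultures, and C3 lay near the middle of the table.

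C1q is a hexamer of trimers, and each trimer needs 1 chain from C1qa, C1qb and C1qc. The 3 genes lie within 18675 bases on chromosome 4 of GRCm38, all on the minus strand (C1qb 136880129 to 136886187, C1qc 136889804 to 136893065, C1qa 136895917 to 136898803). C1qa ranged from 10.40 to 10.55 log2 CPM with DMSO (median 10.49) and from 10.40 to 10.56 with thymol (median 10.44). C1qb ranged from 9.97 to 10.24 log2 CPM with DMSO (median 10.04) and from 9.94 to 10.32 with thymol (median 10.10). C1qc ranged from 9.70 to 9.79 log2 CPM with DMSO (median 9.74) and from 9.68 to 9.84 with thymol (median 9.76). For every chain the groups overlapped over most of their range. The difference in mean log2 CPM was -0.03 for C1qa (95% interval -0.12 to 0.06), 0.05 for C1qb (-0.05 to 0.15) and 0.01 for C1qc (-0.08 to 0.11). Among the odd-numbered libraries the differences were -0.10, 0.09 and 0.04 in that order. Among the even-numbered ones they were 0.04, 0.01 and -0.01, so the sign was not stable for C1qa and C1qc.

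The 3 chains together took 0.336% ± 0.00965 of the recovered reads with DMSO and 0.337% ± 0.0112 with thymol (SD over 6 libraries). Within a library the chains kept a fixed order. C1qa exceeded C1qb by 0.42 ± 0.09 log2 units with DMSO and by 0.34 ± 0.15 with thymol, which is 1.34-fold and 1.27-fold. C1qb exceeded C1qc by 0.32 ± 0.09 log2 units with DMSO and by 0.35 ± 0.10 with thymol (SD, n = 6). The balance of the chains thus differed between groups by less than its spread between libraries.

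C3, the component on which all pathways converge, lies on chromosome 17 (57203970 to 57228136, minus strand). Its level was low, from 4.63 to 5.07 log2 CPM with DMSO (median 4.77, 171 to 234 reads per library) and from 3.94 to 4.83 with thymol (median 4.44, 82 to 193 reads). In 5 of the 6 thymol libraries C3 lay below every DMSO library, and in thymol replicate 1 it was inside the DMSO range. The DMSO libraries averaged 4.80 ± 0.15 and the thymol libraries 4.43 ± 0.29 log2 CPM (SD, n = 6 per group), a difference of -0.37 ± 0.14 (SE, 95% interval -0.65 to -0.09). C3 was not among the genes called in the whole-table fit. The spread of C3 between thymol libraries rested on replicates 1 and 6, its highest and lowest value. Leaving out 1 library at a time gave differences between -0.45 and -0.27 for C3. The difference was -0.21 among the odd-numbered and -0.53 among the even-numbered libraries.

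Set beside C3, the macrophage-derived C1qa was 5.68 ± 0.19 log2 units higher with DMSO and 6.02 ± 0.33 higher with thymol (SD, n = 6), or 51.3-fold and 65.1-fold. The fibroblast-derived side of the comparison rests on C3 alone. Of the macrophage-derived side, 1 of 6 members was higher past the threshold and 2 were lower, beside 0.654% and 1.57% of all genes. The 3 C1q chains did not pass. Since the choice of members used this contrast, nothing is read from these counts.

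Properdin, the positive regulator of complement and the only member on chromosome X (Cfp, 20925454 to 20931555, minus strand), differed most among the members. Its level ranged from 7.54 to 8.12 log2 CPM with DMSO (median 7.85, 1292 to 2090 reads) and from 6.86 to 7.30 with thymol (median 7.005, 705 to 1050 reads). The highest thymol library, replicate 1, was below the lowest DMSO library, replicate 2. The DMSO libraries averaged 7.83 ± 0.19 and the thymol libraries 7.04 ± 0.16 log2 CPM (SD, n = 6 per group), a difference of -0.79 ± 0.07 (SE, 95% interval -0.94 to -0.64), or 229 against 133 CPM. Leaving out 1 library at a time gave differences between -0.84 and -0.73. Among odd-numbered libraries alone it was -0.87, and among even-numbered ones -0.70.

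The receptors of the anaphylatoxins, the small fragments of C3 and C5, went opposite ways. C3ar1 (chromosome 6, 122847138 to 122856161, minus strand) binds C3a. It ranged from 9.08 to 9.36 log2 CPM with DMSO (median 9.26) and from 9.38 to 9.59 with thymol (median 9.46), so the lowest thymol library was above the highest DMSO library by a narrow margin. The DMSO libraries averaged 9.24 ± 0.10 and the thymol libraries 9.46 ± 0.08 log2 CPM (SD, n = 6 per group), a difference of 0.22 ± 0.05 (SE, 95% interval 0.11 to 0.32), or 608 against 706 CPM. Leaving out 1 library at a time gave differences between 0.18 and 0.24. The difference was 0.27 among the odd-numbered and 0.16 among the even-numbered libraries.

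C5ar1 (chromosome 7, 16246743 to 16259540, minus strand) binds C5a, the strongest chemoattractant of the cascade. It ranged from 6.71 to 7.19 log2 CPM with DMSO (median 7.05, 650 to 1094 reads) and from 6.51 to 6.89 with thymol (median 6.64, 552 to 826 reads). It lay below the whole DMSO range in 5 of 6 thymol libraries, and thymol replicate 1 was above DMSO replicate 5 only. Group means were 7.02 ± 0.16 (DMSO) and 6.67 ± 0.13 (thymol) log2 CPM (SD, n = 6 per group), a difference of -0.35 ± 0.08 (SE, 95% interval -0.50 to -0.20). With 1 library left out at a time it was between -0.41 and -0.32, in the even-numbered libraries -0.46 and in the odd-numbered ones -0.25.

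Within each library C3ar1 exceeded C5ar1, by 2.09 to 2.37 log2 units with DMSO and by 2.49 to 2.91 with thymol. The 2 ranges did not overlap, and the mean excess went from 2.23 ± 0.10 to 2.80 ± 0.15 log2 units (SD, n = 6), that is from 4.69-fold to 6.95-fold.

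**Figure D2:**
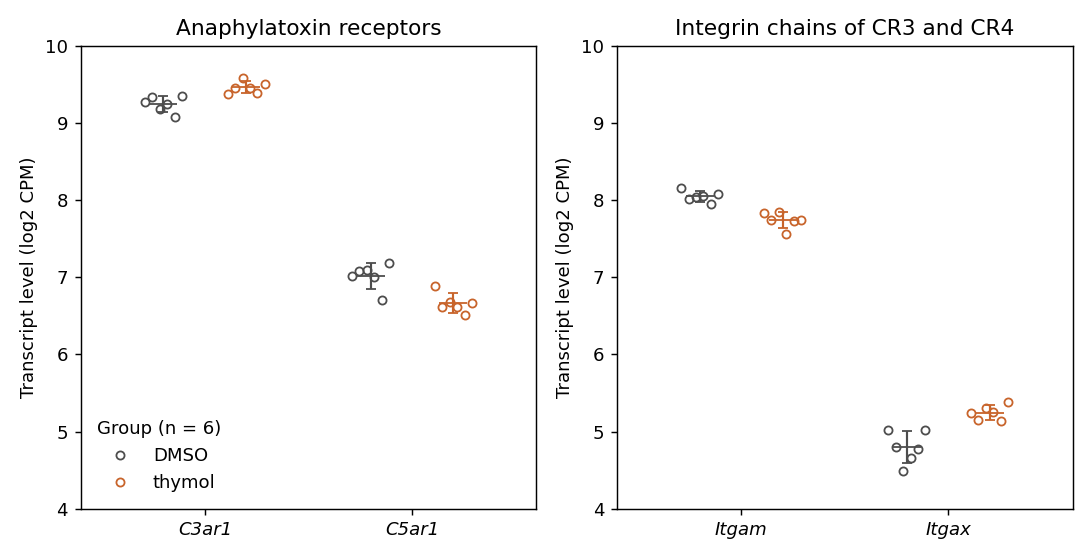
Levels (vertical axis, log2 CPM) of the anaphylatoxin receptors C3ar1 and C5ar1 and of the integrin chains Itgam and Itgax in the 6 DMSO and 6 thymol libraries. Circles are libraries, bars are the mean ± SD. C3ar1 and Itgax are higher with thymol, while C5ar1 and Itgam are lower.

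The rest of the pathway was taken from a list of 49 further complement genes, of which 17 had a row. Of these 17, 1 rose (Itgax), 1 fell (Itgam) and 15 did not pass the threshold, beside 0.654% of all genes called higher and 1.57% called lower. There were 7 differences above 0 and 10 below it and a median of -0.04, and the groups did not overlap for 2 of the 17, beside 1.68% of all genes. Both genes that passed encode receptor chains. Itgam pairs with Itgb2 to form complement receptor 3 and Itgax pairs with Itgb2 to form complement receptor 4, both of which bind C3 fragments on tagged particles.

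Itgam ranged from 7.95 to 8.16 log2 CPM with DMSO (median 8.05) and from 7.56 to 7.85 with thymol (median 7.74), with no overlap. The difference was -0.31 ± 0.06 (SE, limma adjusted p = 0.000705). Itgax ranged from 4.49 to 5.02 log2 CPM with DMSO (median 4.79, 166 to 242 reads) and from 5.13 to 5.39 with thymol (median 5.24, 208 to 316 reads), again with no overlap. The difference was 0.45 ± 0.12 (SE, limma adjusted p = 0.0216). The limma call of Itgax was lost without DMSO replicate 3, without DMSO replicate 4, without thymol replicate 3 and without thymol replicate 6, with differences of 0.34 to 0.50 over 24 alternatives. Both calls were lost without the mean-variance trend and among the odd-numbered libraries alone, and that of Itgax also among the even-numbered ones alone. The shared partner Itgb2 had 7.33 log2 CPM with DMSO and 7.27 with thymol, a difference of -0.06 (95% interval -0.21 to 0.08).

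Itgam exceeded Itgax in every library, by 3.25 ± 0.18 log2 units with DMSO and by 2.499 ± 0.13 with thymol (SD, n = 6). The excess was 9.54-fold and 5.65-fold. The difference of -0.75 log2 units combines the opposite changes of both genes given above and was not tested again.

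**Figure D3:**
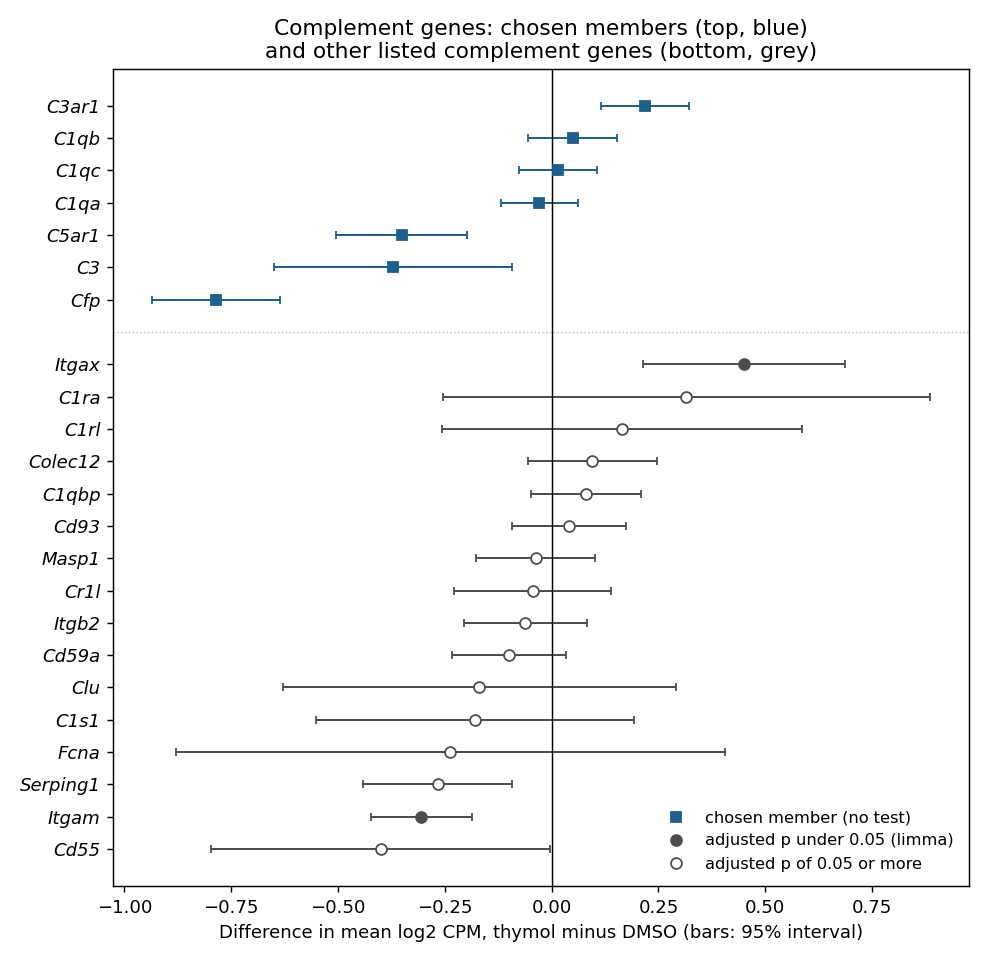
Difference in mean log2 CPM, thymol minus DMSO (horizontal axis), with its 95% interval, for the 7 chosen members and 16 other complement genes with a row. Squares are the members, whose difference is a description. Filled circles are the other genes with a limma adjusted p under 0.05, Itgax and Itgam.

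Among the genes of classical and lectin initiation, 6 of 14 had a row and none of the 6 passed. At an unadjusted p under 0.05 were 0 of the 6, against 1261 of the 10697 genes. The most abundant were Masp1, a protease of the lectin pathway, with 7.78 log2 CPM with DMSO and 7.74 with thymol, and the scavenger receptor collectin Colec12, with 6.54 and 6.63. The proteases that act with C1q were measured at low levels, with C1s1 at 3.98 log2 CPM with DMSO and C1ra at 2.51. None of the 4 convertase components and none of the 6 terminal components listed had a row, and they were not analysed here.

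Of the fluid-phase regulators 3 of 10 had a row. Serping1, the inhibitor of C1r and C1s, averaged 6.70 ± 0.17 (DMSO) and 6.43 ± 0.22 (thymol) log2 CPM (SD, n = 6). The difference of -0.27 ± 0.09 (SE) did not pass (limma adjusted p = 0.0997), although only 1 thymol library reached into the DMSO range. Serping1 did pass without thymol replicate 1 (limma adjusted p = 0.0102), without DMSO replicate 2 (0.0499) and with the replicate number as a block (0.0304). Of the membrane regulators 3 of 7 had a row and none of the 3 passed. Cd59a, which blocks the membrane attack complex, had 7.41 log2 CPM with DMSO and 7.31 with thymol, and Cr1l (Crry), the broad rodent inhibitor of C3 activation, had 5.80 and 5.75.

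Transcription factors known to act at complement genes were represented by 13 of 13 genes. Past the threshold 0 of the 13 rose and 1 fell, beside 0.654% and 1.57% of all genes. At an unadjusted limma p under 0.05 were 6 of the 13, against 1261 of the 10697 genes. There were 4 differences above 0 and 9 below it. The groups did not overlap for 2 of the 13, beside 1.68% of all genes. Cebpd, a C/EBP family factor of the acute phase, went from 6.73 ± 0.08 log2 CPM with DMSO to 6.35 ± 0.15 with thymol (SD, n = 6), a difference of -0.38 ± 0.08 (SE, limma adjusted p = 0.00154). The 6 thymol libraries of Cebpd all lay below the 6 DMSO libraries, and the call was lost without the mean-variance trend and among the odd-numbered libraries alone. Spi1, which encodes PU.1, is named outside the rule for named genes because its motif was searched. Spi1 had 7.47 log2 CPM with DMSO and 7.41 with thymol (limma adjusted p = 0.83).

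Proteins that share the C1q domain without belonging to complement were represented by 8 of 26 genes. By limma 0 of the 8 passed, with 2 at an unadjusted p under 0.05, against 1261 of the 10697 genes. Their median difference was -0.07. Without thymol replicate 4, C1qtnf3, a secreted paralogue of adiponectin, passed with a difference of -0.52 (limma adjusted p = 0.0346), against -0.39 (limma adjusted p = 0.208) with all libraries.

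The label of the cultures was checked against lists of cell type markers. Of the fibroblast markers 21 of 22 had a row, with a median level of 8.35 log2 CPM, and of the macrophage markers 23 of 24 had a row, with a median level of 7.54. Lyz2, the macrophage lysozyme, reached 13.61 log2 CPM with DMSO, above Col1a1, the main collagen chain of fibroblasts, at 11.95. The cultures therefore carried transcripts of both types. In bulk RNA, fewer cells of a type and less RNA per cell cannot be told apart. Dendritic cell, mast cell, T cell and B cell markers had no row (0 of 8, 0 of 8, 0 of 8 and 0 of 6), while 3 of 12 neutrophil markers and 2 of 8 endothelial markers had one, with median levels of 3.47 and 1.82 log2 CPM.

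The summed level of the 23 macrophage markers ranged from 18790 to 20285 CPM with DMSO and from 18951 to 22648 CPM with thymol. With DMSO most of this sum came from Lyz2, so it says little of the other markers. The mean log2 level of the 23 markers was 7.93 ± 0.03 with DMSO and 7.95 ± 0.03 with thymol (SD, n = 6, exact two-sided permutation test, p = 0.238). The list was chosen with earlier results of these data known, and this p-value was not adjusted, so it is a description. By limma 4 of the 23 rose (Ctss, Mpeg1, Cybb and Cd84) and 0 fell, beside 0.654% and 1.57% of all genes. Over the whole list 11 differences were above 0 and 12 below it, with a median of -0.01. At an unadjusted p under 0.05 were 10 of the 23, against 1261 of the 10697 genes. Relative to the macrophage marker mean of the same library the differences were -0.81 for Cfp, 0.19 for C3ar1, -0.37 for C5ar1 and -0.39 for C3.

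The summed level of the 21 fibroblast markers ranged from 20568 to 21995 CPM with DMSO and from 18907 to 20854 CPM with thymol. Their mean log2 level was 8.19 ± 0.04 with DMSO and 8.12 ± 0.04 with thymol (SD, n = 6, exact two-sided permutation test, p = 0.0108). This list too was chosen with earlier results of these data known, and its p-value was not adjusted, so it is a description. By limma 3 of the 21 fell, Col1a1, Col3a1 and Fstl1, and 0 rose, beside 1.57% and 0.654% of all genes. Over the whole list 7 differences were above 0 and 14 below it, with a median of -0.095. At an unadjusted p under 0.05 were 13 of the 21, against 1261 of the 10697 genes. The groups did not overlap for 4 of the 21, beside 1.68% of all genes. Like the mean of this list, the group mean of C3 was lower. Between libraries, with group means subtracted, C3 and the fibroblast marker mean had r = 0.39 (permutation test, p = 0.264, adjusted p = 0.617). C3 and the macrophage marker mean had r = 0.32 (permutation test, p = 0.371, adjusted p = 0.729), so these values do not tie C3 to either list. Relative to the fibroblast marker mean of the same library the difference of C3 was -0.30, against -0.37 before. On that scale 308 of all genes passed, 69.8% of them higher, against 238 genes and 29.4% on the scale used elsewhere. Of the transcription factors, Cebpa (0.36) and Irf8 (0.31) also passed there, as higher. The part of the marker changes in the results for the members was not tested.

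**Figure D4:**
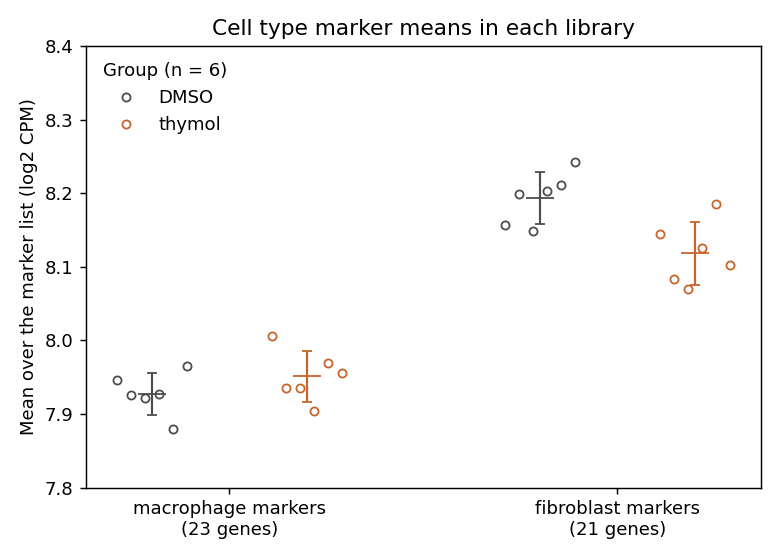
Mean log2 CPM (vertical axis) over the 23 macrophage markers and over the 21 fibroblast markers in each of the 6 DMSO and 6 thymol libraries. Circles are libraries, bars are the mean ± SD, and the axis does not start at 0. The macrophage means overlap between groups, and the fibroblast means are lower with thymol by 0.07 log2 units with some overlap.

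Covariation was examined in 14 relations over the 12 libraries after the mean of each group had been subtracted. By a permutation test with 100000 permutations 0 of the 14 passed after Benjamini-Hochberg adjustment, and 1 had an unadjusted p under 0.05. That was C5ar1 with the macrophage marker mean (Pearson r = 0.71, permutation p = 0.0179, adjusted p = 0.251; Spearman rho = 0.55, permutation p = 0.0786, adjusted p = 0.505). Without the 2 libraries farthest from the median of the marker mean r was 0.33, and with 1 library left out at a time it was 0.56 to 0.86. Within odd-numbered libraries r was 0.71 and within even-numbered ones 0.73, and the highest value, without thymol replicate 5, passed (permutation test, adjusted p = 0.0368). C3ar1 and C5ar1 had r = 0.50 (permutation p = 0.132, adjusted p = 0.492) and rho = 0.38 (permutation p = 0.245, adjusted p = 0.505). Without thymol replicate 1 their r was 0.83 (permutation test, adjusted p = 0.0337) and without DMSO replicate 5 it was 0.07 (adjusted p = 0.892). It was 0.84 within the DMSO and -0.11 within the thymol libraries, a difference that was not tested, and without the 2 libraries farthest from the median of C3ar1 it was 0.18.

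Over all 12 libraries the C1q chains were not tightly tied to each other. C1qb and C1qc had r = 0.56 (permutation p = 0.0811, adjusted p = 0.492) and rho = 0.53 (permutation p = 0.099, adjusted p = 0.505). C1qa had r = 0.08 with C1qb (permutation p = 0.826, adjusted p = 0.857) and 0.19 with C1qc (permutation p = 0.573, adjusted p = 0.729). Spearman's rho was -0.09 with C1qb (permutation p = 0.782, adjusted p = 0.84) and 0.10 with C1qc (permutation p = 0.754, adjusted p = 0.84). Without the 2 libraries farthest from the median of the first-named chain, r was 0.23 for C1qb with C1qc, -0.30 for C1qa with C1qb and -0.09 for C1qa with C1qc. In that order, r was 0.54, 0.40 and 0.61 within odd-numbered libraries and 0.38, 0.22 and 0.51 within even-numbered ones. Group means were subtracted anew within each of these sets. For both relations of C1qa, r was higher in each set than over all libraries, and this was not tested.

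The genes whose group-centred levels were most like those of the members were sought among 5388 genes with a mean of at least 5 log2 CPM, by Pearson r over the 12 libraries and as a description. For the mean of the C1q chains these were Mrpl13 (r = 0.93), Wipf2 (0.92) and Slc25a51 (0.89). For Cfp they were Lce1g (r = 0.88), Cgrrf1 (0.85) and Arl1 (0.85). For C3 they were Bptf (r = 0.90), Kpna4 (0.86) and Def8 (0.85). The libraries share depth and normalization, and these are the highest of 5388 values for each target.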

How the data were processed

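Libraries were prepared with the QuantSeq 3′ FWD kit. The authors aligned reads to GRCm38 (Ensembl 101) with STAR 2.5.3, counted them per gene with HTSeq 0.6.1, dropped genes that did not reach 30 reads in 6 samples and applied TMM scaling. The deposited table holds log2 values (log2 CPM with a prior count, near 1.96 reads in a mean library) for 10697 genes in 12 libraries, and all columns were used. Of the genes, 98.0% met the stated minimum in the recovered reads. These were recovered because the unlogged low values (under 200 reads) of every library lay within 0.02 of whole numbers of reads (100%). Totals are those of the retained genes, and reads are PCR products, so depth speaks of counting error only. A prior of this size pulls differences of low genes towards 0.

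Because the values are log2, limma 3.58.1 (R 4.3.3, lmFit and eBayes with a mean-variance trend, robust option off, no covariate, two-sided) replaced the authors' count model. All 12 libraries entered, p-values were adjusted over 10697 genes and the threshold was 0.05. The fit was tested on simulated data. Other values came from Python 3.11.15, numpy 2.4.6 and scipy 1.17.1. Members and gene lists were chosen with earlier results of these data known.

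The named genes are the 9 members, every gene of the other complement, transcription factor and C1q domain lists past the threshold, the 2 most abundant genes of each complement role (1 of these is not reported here), and the 3 genes most like the C1q mean, Cfp and C3. C1s1, C1ra, Spi1, Cebpa, Irf8, C1qtnf3, Lyz2 and the marker genes that passed were named after their values were seen. C4b and Cfb were not analysed here, which reduced the planned relations to 14. Mouse C4b has a near-identical copy, C4a. Positions are from GENCODE vM21 on GRCm38.

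Alternatives were other pseudocounts (1, 5 and 10 CPM), a mean of at least 5 log2 CPM, median centring, quantile normalization, no mean-variance trend, voom on recovered reads, the replicate number as a block, odd or even library number as a term or alone, levels relative to marker means, and leaving out each library.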

Additional observations from a re-analysis of the deposited data

Results flagged for a closer look

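Of 22 groups of 6 values checked for a library far from the others (the 7 members, the C1q mean, marker means and recovered reads), 4 had one when compared with the other 5 libraries of the same group, where chance gives about 1 in 20, or 1.1 of 22. Among the thymol libraries C1qa was highest in replicate 6, at 10.56 log2 CPM, with the nearest at 10.46. Among the DMSO libraries C1qb was highest in replicate 1, at 10.24 log2 CPM, with the nearest at 10.07. The mean of the C1q chains was also highest in replicate 1 among the DMSO libraries, at 10.19 log2 CPM, with the nearest at 10.09, while thymol replicate 1 reached 10.20. Thymol replicate 5 had 9049796 recovered reads, with the nearest thymol library at 6585162.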

How the results depend on the processing

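The 238 genes past the threshold became 57 without the mean-variance trend and 70 in the odd-numbered libraries, were 167 in the even-numbered ones and 332 with the replicate number as a block, and were 172 to 270 with 1 library left out. The 3 members past it became 1 (Cfp) in both of those fits and 2 in the even-numbered libraries, and were 3 to 3 with 1 library left out. The 2 other complement genes became 0 without the trend, 0 in the odd-numbered and 1 in the even-numbered libraries, and were 1 to 3 with 1 library left out (Itgax lost, or Serping1 gained). The 1 call among transcription factors and C1q domain proteins became 0 without the trend and 0 in the odd-numbered libraries, and was 1 to 2 with 1 library left out (2 without thymol replicate 4, with C1qtnf3). The 0 relations became 1 without thymol replicate 1 (C3ar1 with C5ar1) and 1 without thymol replicate 5 (C5ar1 with the macrophage marker mean), so these counts were 0 to 1. The odd and even fits hold fewer libraries, and the causes of the other changes were not tested. The other fits gave 230 to 277 genes on the original scale, with these 3 members and 2 other complement genes in each.

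Libraries with the same number did not deviate together for every number (r = 0.27, 0.02, 0.05, 0.11, -0.05 and 0.01 for numbers 1 to 6, over genes, which are not independent replicates), and only number 1 matched its own partner best. The numbers were therefore not treated as pairs. With the replicate number as a block 332 genes passed, with the same 3 members and with Serping1 added, and the members' differences were as in the main fit. C3 (82 to 234 reads per library) is the member whose precision depth limits most.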
